A study of Homo sapiens with 8 samples.

Results

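The genes described here encode 60 ribosome biogenesis factors, the nucleolar proteins that transcribe, modify, cut and fold ribosomal RNA (rRNA). They were given as a list of symbols, and all 60 were found among the 22627 gene symbols of the deposited tables. Each factor was placed by its known role in 1 of 5 classes: 7 genes of RNA polymerase I (Pol I) transcription, 8 of small nucleolar ribonucleoproteins (snoRNPs), 21 small-subunit factors, 18 large-subunit factors and 6 multifunctional nucleolar proteins.

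RNA was sequenced from NB4, a human leukaemia cell line arrested at the promyelocyte stage by its PML-RARA fusion, which all-trans retinoic acid (ATRA) drives towards granulocytes. The groups are shTFEB ATRA, shTFEB vehicle, shScr ATRA and shScr vehicle, 2 samples each in the labels: a lentiviral hairpin against TFEB, a transcription factor of lysosome genes, or a scrambled hairpin, with 1 µM ATRA or ethanol for 72 h. The study asked how TFEB takes part in the maturation that the retinoid induces. The labels name no clone, and nothing says whether the paired samples came from separate cultures. Titles of the shScr ATRA samples also hold the word vehicle, so their group rests on the treatment field, and untransduced cells were not analysed here.

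Each deposited table gives every transcript model a single number for the group, its FPKM (fragments per kilobase of model, scaled to the mapped fragments of a library). Spread between samples is therefore unknown and nothing could be tested: differences are given as ratios without a replicate check, and no p-value is printed. The words rose and fell are kept for log2 ratios of FPKM + 1 of at least 1 in size, a 2-fold mark; the added constant shrinks changes of low genes. All 60 factors were among the 11052 genes compared, which average 1 FPKM or more. Depth, read approximately from the spacing of the lowest values, was 0.911 times that of shScr vehicle for shTFEB ATRA, 1.17 times for shTFEB vehicle and 1.05 times for shScr ATRA. The lowest level of any factor, 2.02 FPKM for MYBBP1A in shScr ATRA, corresponds to about 129.5 fragments per kilobase. Counting error is therefore small beside a 2-fold difference, but may not be beside smaller differences or for a ratio close to the mark. The estimate covers counting error only.

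The labels were checked before the factors. TFEB mRNA was 8.44 FPKM in shTFEB ATRA and 19.4 FPKM in shScr ATRA, but 1.35 FPKM in cells labelled shTFEB vehicle and 1.20 FPKM in shScr vehicle. TFEB mRNA thus did not bear out the label of the shTFEB vehicle group, which is named below as labelled. Among promyelocyte markers MPO, the granule peroxidase, had 2462 FPKM in cells labelled shTFEB vehicle and 3871 FPKM in shScr vehicle, whereas the elastase gene ELANE was listed at or near 0 in every group. The 7 promyelocyte markers summed to 710 FPKM in shTFEB ATRA and 2872 FPKM in shTFEB vehicle. In shScr cells they summed to 832 FPKM with ATRA and 4504 FPKM in vehicle. Of the 6 compared, 5 were lower in cells labelled shTFEB vehicle than in shScr vehicle, 1 of them past the mark, and 1 was higher. The 8 markers of maturing neutrophils summed to 1124 FPKM in shTFEB ATRA and 68.7 FPKM in shTFEB vehicle, and to 2230 FPKM in shScr ATRA and 68.4 FPKM in shScr vehicle. Single markers differed between the vehicle groups: 2 of the 8 were past the mark, higher in cells labelled shTFEB vehicle, and 4 had a ratio below 0. Erythroid markers summed to at most 0.173 FPKM in a group. Lymphoid markers summed to 132 FPKM in shTFEB ATRA and 31.7 FPKM in shTFEB vehicle, and to 188 FPKM in shScr ATRA and 30.0 FPKM in shScr vehicle, most of it NKG7. CD3E and MS4A1 stayed under 1 FPKM. Non-blood markers summed to between 29.8 and 36.3 FPKM.

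Ribosome production starts in the nucleolus, where Pol I copies the rRNA genes into a long precursor. SnoRNPs then methylate and pseudouridylate it, while small-subunit and large-subunit factors bind, cut and fold it around ribosomal proteins. Growing leukaemia cells invest heavily in this process, and the transcription factor MYC, which binds the E-box hexamer CACGTG, is known to drive many of its genes.

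All 60 factors had less mRNA under ATRA as deposited, and many at least 2-fold less. They fell in 36 of 60 cases in shTFEB cells and in 53 of 60 cases in shScr cells, and none rose in either line. Among all genes compared, 10.5% fell and 11.5% rose in shTFEB cells, and 15.2% fell and 12.5% rose in shScr cells, which is a description since the set was not chosen independently of these data. After median-of-ratios rescaling 28 of 60 factors fell in shTFEB cells and 49 of 60 in shScr cells, and with 5 FPKM added in place of 1 FPKM 24 and 48. The median factor kept 45.1% of its vehicle level under ATRA in shTFEB cells and 31.0% in shScr cells, where the median gene kept 89.5% and 87.7%. On the log2 scale the medians of the factors were −1.09 in shTFEB cells and −1.63 in shScr cells, which is −0.96 and −1.48 relative to the medians of all genes. The ratio was below 0 for all 60 factors in both lines as deposited (57.6% of all genes in shTFEB cells and 57.4% in shScr cells), and for 58 in shTFEB cells and 59 in shScr cells after median-of-ratios rescaling, which moved the median of all genes to 0.00 in both lines. Over all genes in shScr cells, 1384 rose and 1676 fell as deposited, whereas 1612 rose and 1257 fell after that rescaling; in shTFEB cells 1270 rose and 1159 fell as deposited, and 1440 and 884 after it. By the looser rule that the deposited bounds do not overlap, 59 of 60 factors were lower in shTFEB cells (46.1% of all genes) and 60 of 60 in shScr cells (47.9%). These bounds enclosed the value itself for only 25 to 38 of 60 factors in a group, so their separation does not measure error.

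**Figure D1:**
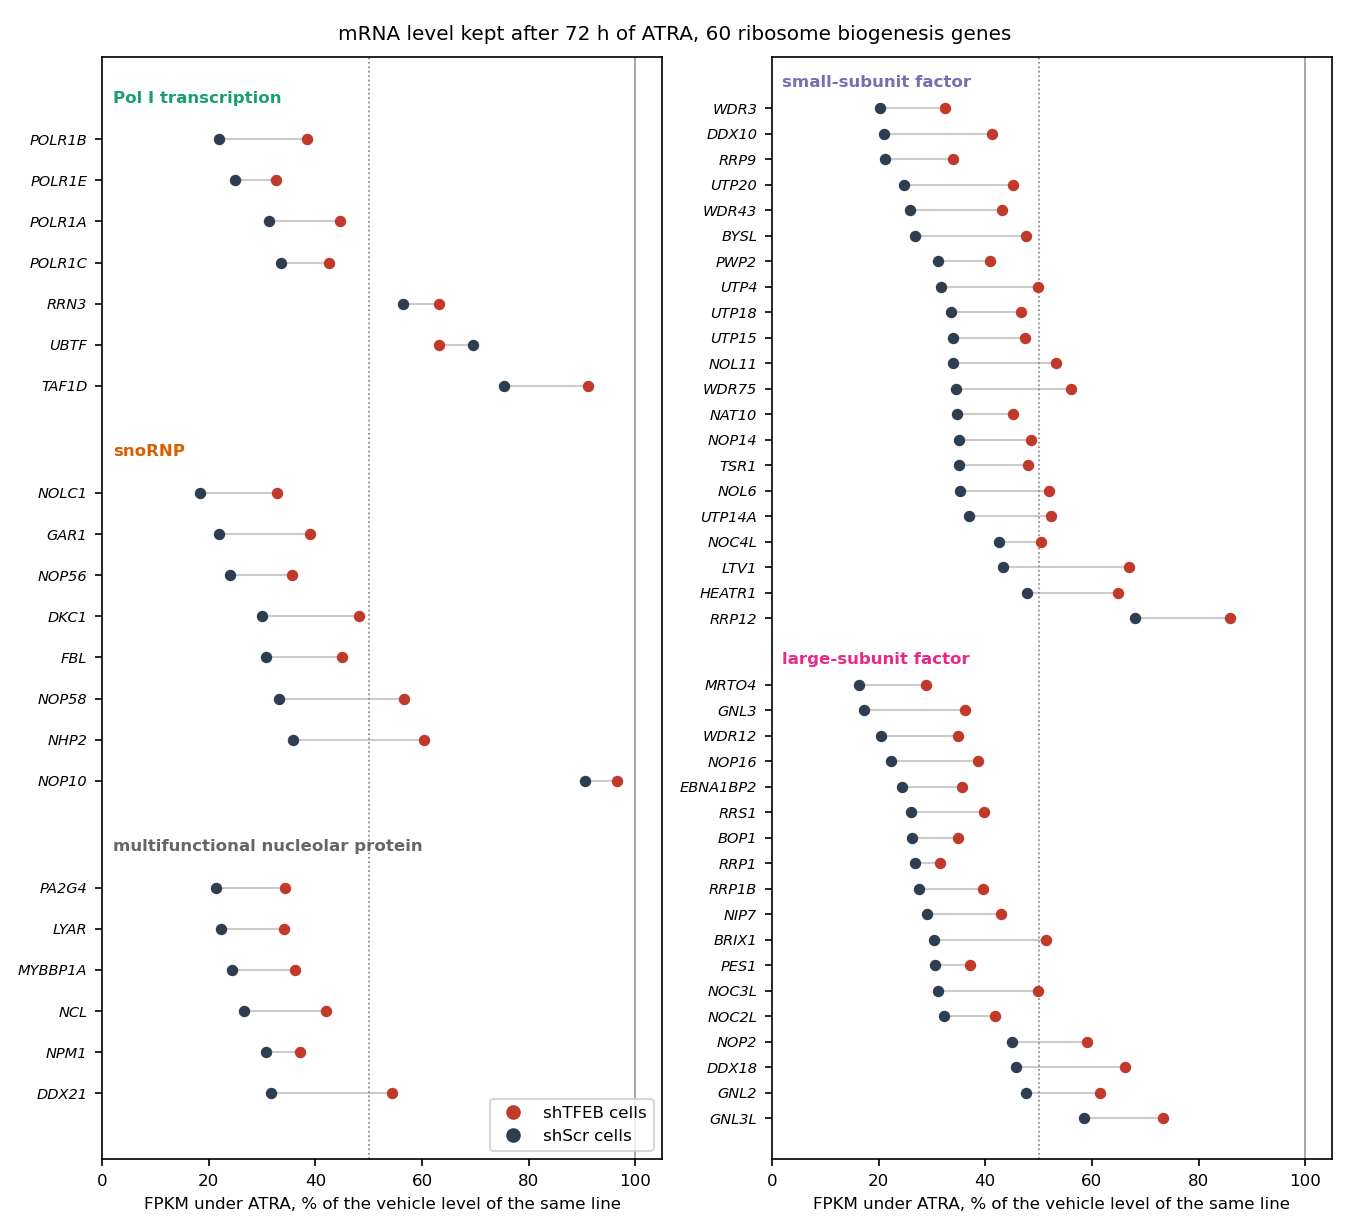
Level of each of the 60 factors under ATRA as a percentage of the vehicle level of its own line (x axis, FPKM without an added constant), in shTFEB cells (red) and shScr cells (dark blue), by class. Dotted lines mark 50% and solid lines 100%; the red point lies to the right of the dark one for every factor except UBTF, and NOP10, at 96.6% and 90.5%, lies farthest right.

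The sum over the set shows the scale of the fall. All 60 factors together held 2746 FPKM in shTFEB ATRA and 6140 FPKM in cells labelled shTFEB vehicle, and 1968 FPKM in shScr ATRA and 6190 FPKM in shScr vehicle. The 2 most abundant, NPM1 and NCL, made up a large part of each sum, so medians over genes are used for the classes. MYC itself, a known regulator of such genes, had 54.6 FPKM in shTFEB ATRA and 270.5 FPKM in cells labelled shTFEB vehicle, and 25.6 FPKM in shScr ATRA and 279 FPKM in shScr vehicle. Its log2 ratios were −2.29 in shTFEB cells and −3.39 in shScr cells, farther from 0 than those of any of the 60 factors. Proliferation markers also summed lower under ATRA: the 9 genes came to 707 FPKM in shTFEB ATRA and 1004 FPKM in shTFEB vehicle, and to 617 FPKM in shScr ATRA and 1044 FPKM in shScr vehicle. Of these 1 fell in shTFEB cells and 2 in shScr cells, MCM4 in both and MCM2 in shScr cells. MKI67, a marker of cycling cells, had 64.1 FPKM in shTFEB ATRA and 76.8 FPKM in shTFEB vehicle, and 73.1 FPKM in shScr ATRA and 81.0 FPKM in shScr vehicle. Their part in the fall of the factors was not tested, and in bulk RNA fewer cells of a kind and less RNA per cell cannot be told apart.

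Many of these genes share a promoter feature that their choice did not use. Promoters from RefSeq (build GRCh38.p14, 250 bases before to 50 after each start) were found for 52 of the 60 factors. Those of POLR1E, NOP58, NOLC1, RRP12, BOP1, RRP1B, RRS1 and DDX18 were not used here. The hexamer CACGTG, which reads the same on both strands, lay in a promoter of 25 of the 52 (48.1%), against 13.1% of the 8508 protein-coding genes compared that have a promoter in the table. Within 50 bases of the start it was present in 23 factors (44.2%) and in 5.76% of those genes. Of 90 biogenesis genes outside the set that have a promoter, fewer carried it than of the factors. It lay in a promoter of 18 (20%) and within 50 bases of the start in 14 (15.6%). Promoters of the factors had a median GC content of 64.2%, against 64.7% for the genes compared. The longer motif TCACGTGA, which contains the hexamer and resembles the element bound by TFEB, was present in 0 of 52 factors and in 2.40% of the genes compared. A match is a string of letters and not evidence of binding.

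The following 30-base windows of GRCh38.p14 show the hexamer, in capitals, on the strand of each gene. They are a selection of the factors that carry it, ordered by log2 ratio in shScr cells, from GNL3 to NOP10, which did not fall. Other carriers, among them EBNA1BP2, lie between these in that order and are not shown.
GNL3 (chr3:52686026-52686055, plus strand): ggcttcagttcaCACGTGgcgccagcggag
MRTO4 (chr1:19251807-19251836, plus strand): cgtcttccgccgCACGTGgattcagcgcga
LYAR (chr4:4290068-4290097, minus strand): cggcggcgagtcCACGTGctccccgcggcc
GAR1 (chr4:109815781-109815810, plus strand): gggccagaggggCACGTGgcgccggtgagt
RRP9 (chr3:51941892-51941921, minus strand): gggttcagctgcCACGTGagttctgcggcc
WDR43 (chr2:28894658-28894687, plus strand): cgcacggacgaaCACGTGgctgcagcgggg
BYSL (chr6:41921515-41921544, plus strand): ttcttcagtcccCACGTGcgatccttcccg
UTP20 (chr12:101280083-101280112, plus strand): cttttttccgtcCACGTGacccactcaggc
FBL (chr19:39846356-39846385, minus strand): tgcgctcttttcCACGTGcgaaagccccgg
PES1 (chr22:30591880-30591909, minus strand): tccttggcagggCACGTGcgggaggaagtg
NOP10 (chr15:34343130-34343159, minus strand): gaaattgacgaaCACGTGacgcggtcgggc
Counted from the first transcribed base as 1, the hexamer starts at position 7 in GNL3 and FBL, 15 in MRTO4 and 4 in WDR43, and 11 bases before that base in NOP10. GNL3 and NOP10 thus both carry the hexamer close to the start and lie at opposite ends of the range of responses.

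The share of hexamer promoters differed between classes. Small-subunit factors had it within 50 bases of the start in 11 of 20 cases, large-subunit factors in 7 of 14, snoRNP genes in 3 of 6 and multifunctional proteins in 2 of 6. None of the 6 Pol I genes with a promoter had it anywhere in the 300 bases, although 3 of the 6 fell in shScr cells. Within the set, 24 of the 25 factors with the hexamer and 22 of the 27 without it fell in shScr cells. In shScr cells the median log2 ratio was −1.62 for the 25 factors with the hexamer and −1.56 for the 27 without, and in shTFEB cells −1.06 and −1.07. Among the other biogenesis genes, 15 of 18 with it and 33 of 71 without it fell in shScr cells, with medians of −1.34 and −0.93. Among compared genes outside the biogenesis lists, 183 of 1068 with it and 972 of 7299 without it fell in shScr cells. Their medians were −0.23 and −0.14.

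Pol I genes are given as enzyme subunits and promoter factors, a grouping made after values were seen. All 4 subunit genes of the set fell in both lines as deposited, and none of its 3 promoter factor genes did. The 14 other Pol I genes, listed outside the set, were not split this way. They fell in 2 cases in shTFEB cells and in 5 in shScr cells, so most did not fall in each line. They kept medians of 63.2% and 56.3% of the vehicle level, with ranges of 37.6% to 112.7% and 26.0% to 108.7%. In shTFEB cells POLR1A missed the mark after median-of-ratios rescaling, and POLR1A and POLR1B missed it with 5 FPKM added. POLR1B, the second-largest subunit, had 8.33 FPKM in shTFEB ATRA and 21.6 FPKM in shTFEB vehicle, and 5.15 FPKM in shScr ATRA and 23.4 FPKM in shScr vehicle, log2 ratios of −1.28 and −1.99. POLR1E, a subunit specific to Pol I, had 5.87 and 18.0 FPKM with and without ATRA in shTFEB cells and 4.83 and 19.3 FPKM in shScr cells. The largest subunit POLR1A was similar, with 8.09 and 18.1 FPKM in shTFEB cells and 5.87 and 18.7 FPKM in shScr cells. POLR1C, which Pol III shares, kept 42.6% of its vehicle level in shTFEB cells and 33.6% in shScr cells.

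The 3 promoter factors kept more. UBTF, which coats the rRNA genes, had 27.0 FPKM in shTFEB ATRA and 42.7 FPKM in shTFEB vehicle, and 26.8 FPKM in shScr ATRA and 38.5 FPKM in shScr vehicle. TAF1D, a subunit of the promoter selectivity factor, had 79.1 and 86.9 FPKM with and without ATRA in shTFEB cells and 78.2 and 104 FPKM in shScr cells. RRN3, which brings the polymerase to the promoter, kept 63.2% in shTFEB cells and 56.5% in shScr cells. The subunits described above kept 32.6% to 44.7% in shTFEB cells and 22.0% to 33.6% in shScr cells. The 3 promoter factors kept 63.2% to 91.0% and 56.5% to 75.4%. Since the grouping was made after values were seen, the gap between these ranges is a description only. RRN3 has near-identical copies, among them RRN3P1, with 2.98 to 5.60 FPKM over the groups, so fragments may have been shared between them.

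**Figure D2:**
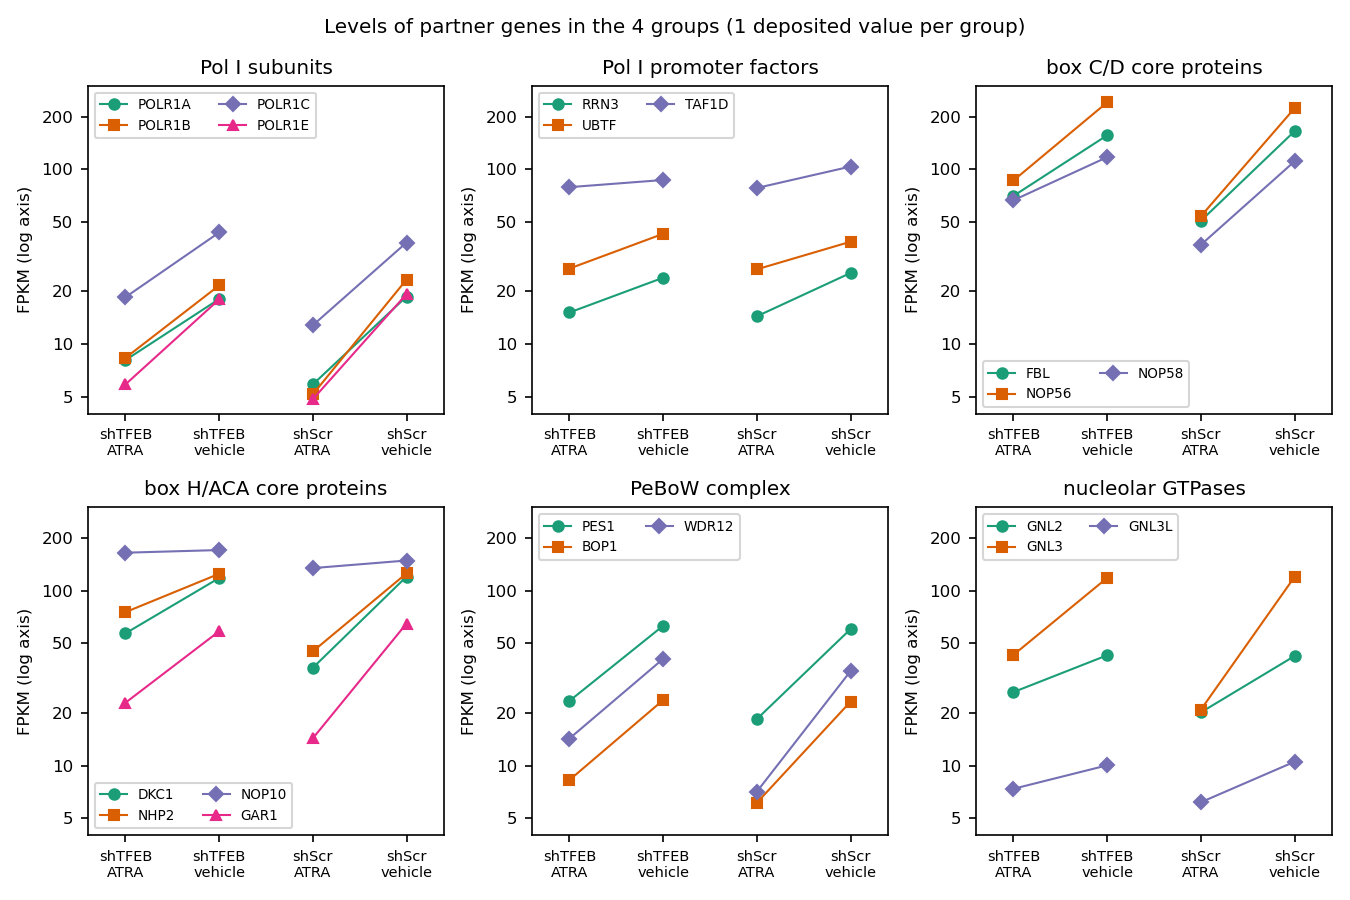
FPKM (log axis) of genes whose products work together, in shTFEB ATRA, shTFEB vehicle, shScr ATRA and shScr vehicle, 1 deposited value each; lines join the treatments of 1 line. Pol I subunits slope steeply and promoter factors less, NOP10 stays level while its partners drop, and GNL3 converges on GNL2 in shScr ATRA, at 20.9 and 20.1 FPKM. The groupings were made after values were seen.

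SnoRNP genes fell in 5 of 8 cases in shTFEB cells and in 7 of 8 in shScr cells, with medians of −1.09 and −1.70. NOLC1, a chaperone of snoRNPs in the nucleolus and Cajal bodies, had 74.8 FPKM in shTFEB ATRA and 228 FPKM in shTFEB vehicle, and 42.3 FPKM in shScr ATRA and 229 FPKM in shScr vehicle. Its log2 ratios of −1.60 and −2.41 were the lowest of the class. The 3 core proteins of box C/D snoRNPs, which guide rRNA methylation, fell in shScr cells, and NOP56 and FBL fell in shTFEB cells too, FBL not after median-of-ratios rescaling. NOP56, a scaffold protein, had 86.3 and 242 FPKM with and without ATRA in shTFEB cells and 53.9 and 224 FPKM in shScr cells. The methyltransferase gene FBL had 70.4 and 157 FPKM in shTFEB cells and 50.7 and 165 FPKM in shScr cells. NOP58, the second scaffold, kept 56.6% in shTFEB cells and 33.3% in shScr cells.

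Box H/ACA snoRNPs, which guide pseudouridylation, showed unequal partners. DKC1, the pseudouridine synthase, had 57.1 and 118 FPKM with and without ATRA in shTFEB cells and 36.3 and 121 FPKM in shScr cells. GAR1 had 22.9 and 58.7 FPKM in shTFEB cells and 14.3 and 65.0 FPKM in shScr cells. NHP2 had 75.5 and 125 FPKM in shTFEB cells and 45.0 and 126 FPKM in shScr cells, and these 3 fell in shScr cells. NOP10, the smallest protein of the complex, had 165 FPKM in shTFEB ATRA and 171 FPKM in shTFEB vehicle, and 135 FPKM in shScr ATRA and 149 FPKM in shScr vehicle. It was the factor that kept most in both lines, and its log2 ratio in shScr cells, −0.14, became 0.04 after median-of-ratios rescaling. In vehicle the 4 genes spanned 58.7 to 171 FPKM in shTFEB cells and 65.0 to 149 FPKM in shScr cells, and under ATRA 22.9 to 165 FPKM and 14.3 to 135 FPKM.

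Small-subunit factors fell in 10 of 21 cases in shTFEB cells and in 19 of 21 in shScr cells. WDR3, a UTP-B protein of the early precursor particle, had 10.2 FPKM in shTFEB ATRA and 31.6 FPKM in shTFEB vehicle, and 6.40 FPKM in shScr ATRA and 31.6 FPKM in shScr vehicle. RRP9, which binds the U3 snoRNA, had 12.4 and 36.7 FPKM with and without ATRA in shTFEB cells and 6.82 and 32.2 FPKM in shScr cells. DDX10, an RNA helicase, had 8.33 and 20.2 FPKM in shTFEB cells and 4.31 and 20.5 FPKM in shScr cells. These 3 had the lowest log2 ratios of the class in shScr cells, −2.14, −2.09 and −2.02. WDR43, the most abundant of the class in shScr vehicle, had 26.8 and 62.0 FPKM in shTFEB cells and 17.3 and 66.9 FPKM in shScr cells.

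In shScr cells the least responsive small-subunit factors were RRP12 and HEATR1, and in shTFEB cells RRP12 and LTV1. RRP12, which takes part in export of subunits from the nucleus, had 30.8 and 35.8 FPKM with and without ATRA in shTFEB cells and 23.7 and 34.8 FPKM in shScr cells. HEATR1, a t-UTP protein needed for Pol I transcription as well as processing, had 11.8 and 18.2 FPKM in shTFEB cells and 10.1 and 21.1 FPKM in shScr cells. Its log2 ratio in shScr cells lay just short of the mark at −0.995, and GNL2 lay just past it at −1.04. HEATR1 overlaps LGALS8 in the tables, which averaged 3.60 FPKM against 15.3 FPKM, and whether strand was used in counting is not given in the sources used here.

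The other 5 t-UTP proteins (UTP4, UTP15, WDR43, WDR75 and NOL11) all fell in shScr cells, and of them WDR43 alone fell in shTFEB cells. The 3 UTP-B genes PWP2, UTP18 and WDR3 fell in both lines, UTP18 in shTFEB cells not after median-of-ratios rescaling and PWP2 and UTP18 not with 5 FPKM added. Among factors of later steps, BYSL kept 47.6% in shTFEB cells and 26.8% in shScr cells, TSR1 48.1% and 35.1%, and LTV1, which leaves the subunit in the cytoplasm, 66.9% and 43.3%. NAT10, which acetylates rRNA of the small subunit, kept 45.2% and 34.7%. The remaining members UTP14A, UTP20, NOL6, NOP14 and NOC4L kept 45.1% to 52.4% in shTFEB cells and 24.8% to 42.5% in shScr cells.

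Large-subunit factors fell in 12 of 18 cases in shTFEB cells and in 17 of 18 in shScr cells, with medians of −1.25 and −1.72. GNL3, or nucleostemin, a GTPase of proliferating cells, had 43.0 FPKM in shTFEB ATRA and 119 FPKM in shTFEB vehicle, and 20.9 FPKM in shScr ATRA and 120.1 FPKM in shScr vehicle. MRTO4, which holds the place of the stalk protein on the precursor, had 13.6 and 47.1 FPKM with and without ATRA in shTFEB cells and 7.81 and 47.7 FPKM in shScr cells. These were the lowest log2 ratios of the whole set in shScr cells, −2.47 each. Without the added constant MRTO4 was 3.45-fold lower in shTFEB cells and 6.11-fold lower in shScr cells.

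Close paralogues of the class were compared. GNL3L, the close relative of GNL3, had 7.36 and 10.0 FPKM with and without ATRA in shTFEB cells and 6.16 and 10.5 FPKM in shScr cells, and it was the single large-subunit gene that did not fall in shScr cells. RRP1 and RRP1B were alike by comparison: RRP1 kept 31.5% in shTFEB cells and 26.9% in shScr cells, and RRP1B 39.5% and 27.5%. GNL2, a GTPase needed for nuclear steps of the large subunit, had 26.3 and 42.8 FPKM with and without ATRA in shTFEB cells and 20.1 and 42.3 FPKM in shScr cells.

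The PeBoW complex, is formed by PES1, BOP1 and WDR12, and all 3 genes fell in both lines. WDR12 had 14.3 and 40.8 FPKM with and without ATRA in shTFEB cells and 7.08 and 34.7 FPKM in shScr cells. BOP1 kept 34.9% in shTFEB cells and 26.4% in shScr cells, and PES1 37.1% and 30.5%. In shTFEB cells the 3 partners lay within 34.9% to 37.1%, a narrower range than in shScr cells, 20.4% to 30.5%. The other large-subunit factors NOP16, EBNA1BP2, RRS1, BRIX1, NIP7, NOC2L, NOC3L, NOP2 and DDX18 kept 35.6% to 66.2% in shTFEB cells and 22.4% to 45.7% in shScr cells. NIP7 overlaps COG8 in the tables, which averaged 10.9 FPKM.

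All 6 multifunctional nucleolar proteins fell in shScr cells and 5 of 6 in shTFEB cells. NPM1, a chaperone and the most abundant factor, had 579 FPKM in shTFEB ATRA and 1562 FPKM in shTFEB vehicle, and 530.3 FPKM in shScr ATRA and 1725 FPKM in shScr vehicle. NCL, which binds nascent rRNA, had 357 and 853 FPKM with and without ATRA in shTFEB cells and 208 and 779 FPKM in shScr cells. NPM1 has processed pseudogenes, so part of its fragments may belong elsewhere or be missing. PA2G4, a growth-regulated RNA-binding protein, had 79.4 and 232 FPKM in shTFEB cells and 51.6 and 241 FPKM in shScr cells.

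LYAR, a zinc finger protein of the nucleolus, had 38.0 and 112 FPKM with and without ATRA in shTFEB cells and 24.2 and 109 FPKM in shScr cells. The Pol I repressor gene MYBBP1A had 3.53 and 9.76 FPKM with and without ATRA in shTFEB cells and 2.02 and 8.26 FPKM in shScr cells, and it overlaps SPNS2, which averaged 3.12 FPKM. DDX21, a helicase of Pol I and Pol II transcripts, was the member that did not fall in shTFEB cells, with 113 and 209 FPKM there and 70.2 and 221 FPKM in shScr cells. The class medians of level kept ran from 36.6% (multifunctional) to 48.1% (small-subunit) in shTFEB cells and from 25.6% (multifunctional) to 34.0% (small-subunit) in shScr cells. Within each class the factors spanned a wider range than the class medians did, for example from 16.4% to 58.6% among large-subunit factors in shScr cells.

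The remaining genes of the pathway had higher median log2 ratios, that is smaller decreases under ATRA, than the 60 factors. Members and lists were chosen with earlier results of these data known, so this contrast is a description. Of 103 other biogenesis genes compared, 28 fell in shTFEB cells and 57 in shScr cells, none rose, and medians were −0.74 and −1.05. By list, other small-subunit factors fell in 9 of 35 cases in shTFEB cells and in 22 of 35 in shScr cells, and other large-subunit factors in 15 of 40 and 25 of 40. Other Pol I genes and RNA exosome genes each fell in 2 of 14 cases in shTFEB cells and in 5 of 14 in shScr cells. The lowest ratios belonged to NPM3, a relative of NPM1, with 41.1 and 194 FPKM with and without ATRA in shTFEB cells and 28.5 and 203 FPKM in shScr cells. NLE1, PDCD11 and PNO1 kept 22.4%, 29.1% and 45.3% in shTFEB cells and 17.8%, 22.7% and 25.3% in shScr cells. TCOF1, the Treacle protein that assists Pol I, kept 37.6% and 26.0%, and the shared polymerase subunit POLR2H 49.1% and 36.0%. The exosome genes EXOSC7 and EXOSC2 kept 35.1% and 43.5% in shTFEB cells and 32.8% and 32.0% in shScr cells. NMD3, the export adapter of the large subunit, had 43.4 and 28.4 FPKM in shTFEB cells and 39.8 and 27.1 FPKM in shScr cells, the highest ratios of these lists. SENP3 was listed at 0 in all groups.

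Genes of the proteins that these factors assemble on rRNA are listed for comparison. Cytosolic ribosomal protein genes fell in 1 of 78 cases in shTFEB cells and in 0 of 78 in shScr cells, with medians of −0.54 and −0.50. Mitochondrial ribosomal protein genes fell in 13 and 28 of 77 cases and aminoacyl-tRNA synthetase genes in 3 and 5 of 20 cases. With 1 value per group, these differences between lists are descriptions and were not tested.

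**Figure D3:**
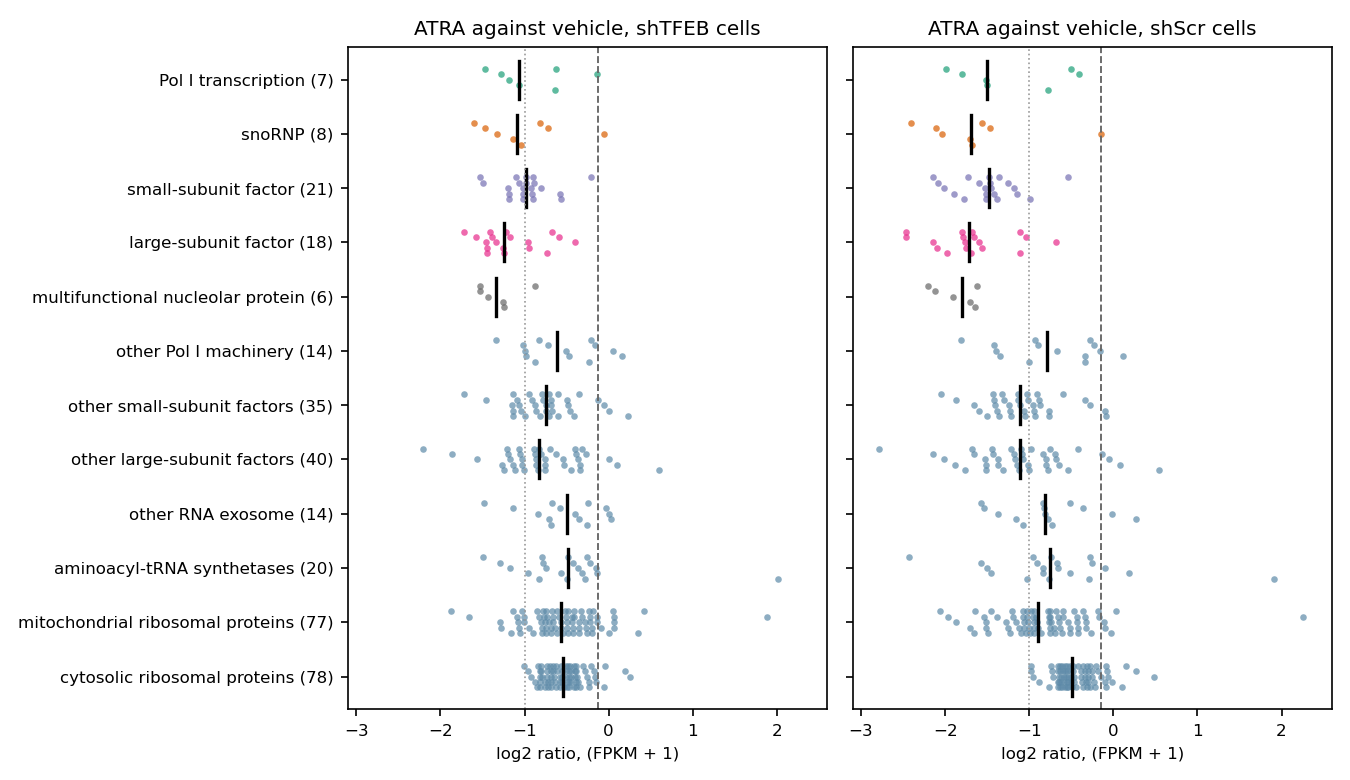
Log2 ratio of FPKM + 1, ATRA against vehicle (x axis), in shTFEB cells (left) and shScr cells (right), 1 point per gene, for the 5 classes of factors and 7 other lists with the number of genes in parentheses. Black bars are medians, the dashed line is the median of all genes compared (−0.13 and −0.15) and the dotted line the 2-fold mark; the medians of the 5 classes of factors lie left of those of the ribosomal protein genes in both lines.

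Between the lines, the median log2 ratio of the 60 factors was 0.56 under ATRA and 0.01 under vehicle. The medians of all genes compared were 0.06 and 0.02. Over all genes, too, the lines differed more often under ATRA than under vehicle, with 1.58% lower and 2.67% higher past the mark under ATRA. None of the 60 passed the mark between cells labelled shTFEB vehicle and shScr vehicle, where 0.787% of all genes were lower and 1.06% higher. The ratio was above 0 for 31 of 60 (55.6% of all genes), with a median of 0.01. RRP1B was farthest from 0, at 21.8 FPKM in cells labelled shTFEB vehicle and 30.9 FPKM in shScr vehicle, a log2 ratio of −0.48. NIP7 was the highest, with 40.8 and 34.1 FPKM, a log2 ratio of 0.26.

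Under ATRA the ratio of shTFEB over shScr was above 0 for all 60 factors, with a median of 0.56, whereas 58.9% of all genes compared were above 0, with a median of 0.06. After rescaling, 57 (median-of-ratios) and 56 (upper-quartile) of the 60 were above 0, with medians of 0.50 and 0.46, and 59 were with the highest model of each gene. GNL3 alone passed the mark, with 43.0 FPKM in shTFEB ATRA and 20.9 FPKM in shScr ATRA. Without the added constant GNL3 was 2.06-fold higher, and BYSL and WDR12 were each 2.02-fold higher. The log2 ratio of GNL3, 1.01, lay at the edge, and no factor passed the mark after either rescaling. Past the mark lay 2.67% of all genes on the higher side and 1.58% on the lower, where there was no factor. GNL3 overlaps GLT8D1 and hosts the small RNA gene SNORD19B, which averaged 2.39 and 178 FPKM over the groups, against 75.6 FPKM for GNL3, and their part in its value was not tested. FPKM is scaled by model length, so these values do not compare numbers of fragments. By the bounds rule, whose bounds left out the value itself for many factors, 55 of 60 factors were higher in shTFEB ATRA (35% of all genes). Under vehicle 18 of 60 were higher in cells labelled shTFEB (21.9% of all genes) and 12 of 60 lower (14.9%). BYSL and WDR12 were next, with 15.1 and 7.47 FPKM for BYSL and 14.3 and 7.08 FPKM for WDR12 in shTFEB ATRA and shScr ATRA. UBTF, TAF1D and RRP1B lay closest to equal, at 101%, 101.1% and 101.3% of the shScr level.

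By class, the median log2 ratio of shTFEB over shScr under ATRA was 0.66 for snoRNP genes, 0.62 for multifunctional proteins, 0.59 for small-subunit factors, 0.49 for large-subunit factors and 0.24 for Pol I genes. Cytosolic ribosomal protein genes had a median of −0.17. MYC stood 2.13-fold higher in shTFEB ATRA than in shScr ATRA. In these groups the summed neutrophil markers were 1124 FPKM in shTFEB ATRA and 2230 FPKM in shScr ATRA, and the proliferation markers 707 and 617 FPKM. Of the 8 neutrophil markers, 7 had a ratio below 0 and 1 above it, with a median of −0.47. Only 2 of the 8 passed the mark, both lower in shTFEB ATRA. Of the 9 proliferation markers, 8 had a ratio above 0 and 1, MKI67, below it, with a median of 0.25. None of these passed the mark. The part of MYC or of either marker list in the difference was not tested, nor can the hairpin be told apart from other differences between the lines.

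**Figure D4:**
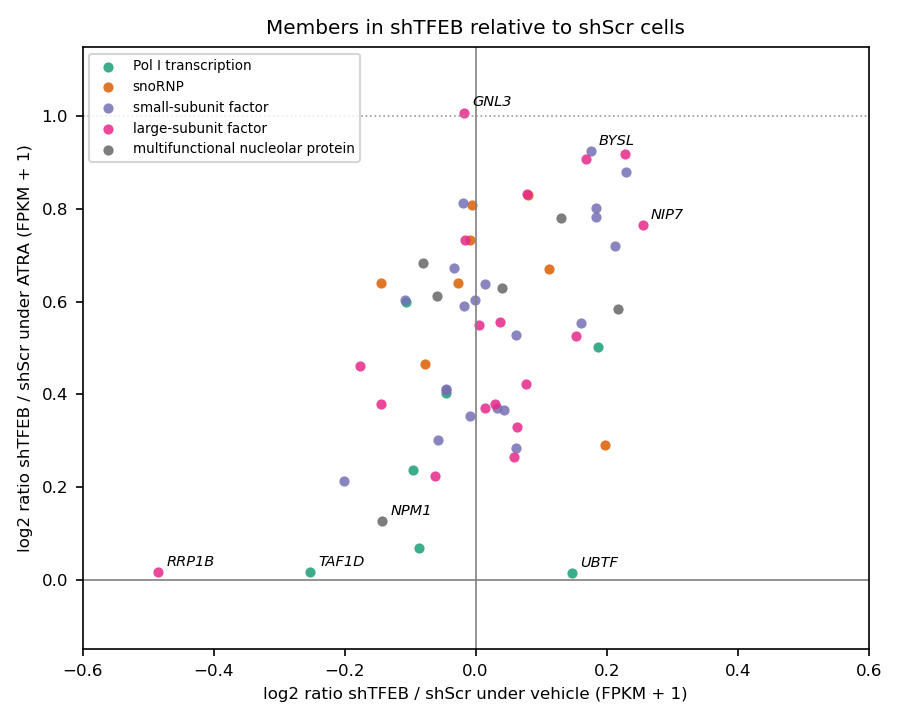
Log2 ratio of shTFEB over shScr, as FPKM + 1, under vehicle (x axis) and under ATRA (y axis) for the 60 factors, coloured by class. Points spread on both sides of 0 along x, from −0.48 (RRP1B) to 0.26 (NIP7), and lie above 0 along y, from 0.01 (UBTF) to 1.01 (GNL3); the dotted line is the 2-fold mark.

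The difference of the ATRA responses, shTFEB minus shScr, was above 0 for 59 of 60 factors, with UBTF the exception at −0.13, and 56.1% of all genes compared were above 0. Its median was 0.52, against 0.04 for all genes. GNL3 was again the single factor past the mark, at 1.03, where 2.42% of all genes were; none was past it in the other direction, where 1.86% of all genes were. DDX10 and NOLC1 followed with 0.83 and 0.81, and NOP10 had 0.09. This difference is built from the same 4 values as the comparisons above and adds no separate measurement.

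Transcript models of 9 factors carried more than 1 value above 0. In shScr cells NOP56 had the largest shift between its models. Its protein-coding model had 59.8 and 136 FPKM with and without ATRA in shTFEB cells and 40.6 and 113 FPKM in shScr cells. The noncoding RefSeq model had 26.5 and 106 FPKM in shTFEB cells and 13.3 and 110.4 FPKM in shScr cells. The noncoding model thus made up 30.7% of the gene in shTFEB ATRA and 43.8% in shTFEB vehicle, and 24.7% in shScr ATRA and 49.4% in shScr vehicle. NOP56 also hosts the small RNA gene SNORD57, which averaged 1002 FPKM, a value scaled by model length and not a number of fragments. A noncoding model of UBTF was listed at 3.84 FPKM in shTFEB ATRA and 5.19 FPKM in shScr ATRA, and at 0 in both vehicle groups, or 14.2% of the gene in shTFEB ATRA and 19.4% in shScr ATRA.

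Shares of other models were as follows. The shorter NPM1 model, which ends at position 170833731 of hg19 chromosome 5, held 20.7% of the gene in shTFEB ATRA and 22.6% in shTFEB vehicle, and 17.1% in shScr ATRA and 21.9% in shScr vehicle. A second NOP16 model held 16.1% and 26.3% with and without ATRA in shTFEB cells and 22.3% and 28.3% in shScr cells. Values of overlapping models are estimates that divide shared fragments, and no count per model was used here.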

How the data were processed

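RNA of 8 NB4 samples in 4 groups was sequenced. FPKM is the authors' deposited unit; the submitters' processing notes name TopHat, Cufflinks, Cuffdiff and the build hg19. Versions and the way the 2 samples of a group were combined are not given in the sources used here. Each table lists 65986 models with 1 FPKM and deposited bounds. RefSeq accessions were matched to symbols of a RefSeq table (GRCh38.p14, names only), 39841 of 41159 (96.8%). FPKM were summed over the 89 models of the 60 genes, all with status OK, with no further normalisation. Ratios are log2((FPKM + 1)/(FPKM + 1)); "kept" percentages add no constant. Bounds enclosed the value of 25 to 38 of 60 factors in a group and were not used as intervals of error. The ratio calculation was tested on simulated data. Python 3.11.15 with pandas 2.3.3 was used. The members, classes and lists were chosen with earlier results of these data known, and the complexes after values were seen. In each class the 3 largest, 2 smallest and most abundant members were described in full; the motifs and alternatives were listed with them.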

Additional observations from a re-analysis of the deposited data

How the results depend on the processing

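The direction of the ATRA response of the factors held under the alternatives run, apart from median-of-ratios rescaling. After it the ratio stayed below 0 for 58 of 60 factors in shTFEB cells and for 59 in shScr cells, where NOP10 was the exception. The numbers that fell, 36 in shTFEB and 53 in shScr cells, were 39 and 54 with a pseudocount of 0.1 FPKM, 24 and 48 with 5 FPKM, 28 and 49 after median-of-ratios rescaling and 33 and 50 after upper-quartile rescaling; without NPM1 and RRN3, chosen after seeing the data, they were 35 and 52 of 58. Deposited bounds that do not overlap gave 59 lower factors in shTFEB cells, 18 higher and 12 lower in shTFEB vehicle and 55 higher in shTFEB ATRA. The bounds are narrow: 46.1% of all genes were lower by this rule in shTFEB cells. They also enclosed the value itself for only 25 to 38 of 60 factors in a group. Factors at least 2-fold higher in shTFEB ATRA than in shScr ATRA numbered 3 with 0.1 FPKM, 0 with 5 FPKM and 0 after either rescaling, and those past the mark in the difference of responses 0 with 5 FPKM and 0 after either rescaling. Median log2 ratios near the mark in shTFEB cells crossed it: small-subunit factors −1.05 with 0.1 FPKM, Pol I genes −0.82 with 5 FPKM and −0.93 after median-of-ratios rescaling, and snoRNP genes −0.95 after median-of-ratios rescaling. No filter, a mean of at least 5 FPKM, the highest model, models with status OK and protein-coding models changed no count of factors past the mark; with the highest model 59 in place of 60 factors were above 0 in shTFEB ATRA over shScr ATRA. No paired analysis was possible because the tables hold 1 value per group and not per sample, and leaving out a replicate was not possible for the same reason.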
